A study of Homo sapiens with 15 samples.

Results

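A set of regulators of self-renewal and of myeloid maturation, together with the telomerase gene *TERT*, was followed in THP-1 cells, a human monocytic leukaemia line, after stimulation with bacterial extracellular vesicles (BEVs). The set holds 10 of the 60286 genes in the count table: *TERT*, *MYC*, *MYB*, *HOXA9*, *HOXA10*, *MEIS1*, *SPI1*, *CEBPA*, *CEBPB* and *CEBPD*. They were taken from the table by symbol, and all 10 were found. The set was chosen with earlier results of these data known, so the p-values of its members may not be independent of that choice. *TERT* was selected on its fall in cells given *E. coli* BEVs, so its levels against PBS and between the species are described without a test. Of the 10 genes, 9 passed the filter on low counts and *MEIS1* did not.

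The study compared 5 treatments, each with 3 sequenced RNA libraries, which makes 15 in all. PBS cells were given buffer without BEVs. BEVs of *E. coli*, at 1 μg/mL, had been isolated by ultracentrifugation (UC) for EUC cells and by precipitation with ϵ-poly-L-lysine (PL) for EPL cells. BEVs of *S. aureus*, at 10 μg/mL, had been isolated by UC for SUC cells and by PL for SPL cells. All libraries came from the same line, the RNA was taken after 6 hours, and the labels give day 0 for every library. The species and the dose changed together, so their effects cannot be told apart. The labels do not say whether the 3 libraries of a group came from separate cultures, so the p-values measure the spread between these libraries, which may be technical.

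TERT is the catalytic subunit of telomerase, the enzyme that renews chromosome ends and is silent in most resting cells. MYC drives growth and binds DNA as a partner of MAX. MYB keeps immature blood cells dividing and falls as they mature. HOXA9, HOXA10 and their cofactor MEIS1 are the programme that fusions of the MLL gene switch on, and THP-1 carries such a fusion, MLL-AF9. PU.1, the product of *SPI1*, and the C/EBP proteins act in the other direction and drive myeloid maturation. C/EBPα is the regulator of granulocyte and monocyte progenitors, while C/EBPβ and C/EBPδ are best known from inflammation.

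The libraries held 14399421 to 16637345 counted reads. Levels are given as CPM, the counts per 1000000 of the TMM-normalised library size, and 3 counts correspond to between 0.176 and 0.207 CPM. Monocyte markers were present in every library, since 7 of the 8 listed markers reached 1 CPM, with *CSF1R* between 201 and 341 CPM. The exception was *CD68*, with 18 counts in all libraries together. Of 24 markers of other cell types, 19 stayed under 1 CPM in every library, among them all T cell, erythroid and epithelial markers. The B cell markers summed to between 9.21 and 10.6 CPM in PBS cells and to between 12.1 and 27.0 CPM in stimulated cells, led by *PAX5*. The fibroblast markers summed to between 0.640 and 0.941 CPM in PBS cells and to between 2.12 and 7.02 CPM in stimulated cells. *CD79A* and *MS4A1* stayed under 0.7 CPM, and *COL1A2* had 1 count in all. The part of these markers in the results below was not tested.

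EUC3, EPL1 and SUC3 stood apart from the other replicates of their own groups. The 6 replicate pairs that include one of them differed by a chi-square per degree of freedom between 15.6 and 46.1, against 2.20 to 7.09 in the other 9 pairs. Where a call, or a correlation among replicates, moved without them, the value without these libraries is given as well.

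*TERT* (ENSG00000164362, chr5:1253147-1295068, minus strand, hg38) was low in every stimulated library. It had 32.4, 31.2 and 28.0 CPM in the PBS libraries, from 507, 531 and 469 counts. EUC cells had 2.67, 2.05 and 1.64 CPM, from 41, 32 and 25 counts, and EPL cells had 2.36, 2.29 and 2.93 CPM, from 36, 36 and 47 counts. SUC cells had 5.74, 3.94 and 2.77 CPM, and SPL cells had 4.60, 3.48 and 3.52 CPM. The PBS and the stimulated libraries were far apart, with no overlap. The mean level was 6.94% of that in PBS cells for EUC, 8.28% for EPL, 13.6% for SUC and 12.7% for SPL. The log2 difference from PBS cells was -3.84 ± 0.22 (SE) for EUC, -3.59 ± 0.21 for EPL, -2.88 ± 0.20 for SUC and -2.98 ± 0.20 for SPL. Without EUC3, EPL1 and SUC3 these differences were -3.69, -3.54, -2.66 and -2.97. These values chose the gene and are a description. In bulk RNA, fewer cells with *TERT* RNA and less of it per cell cannot be told apart. Among the 14526 tested genes with a mean of at least 1 CPM, *TERT* ranked number 7 by the size of its fall in EUC, between *PADI2* (-3.94) and *GPA33* (-3.69). It ranked number 7 in EPL as well, between ENSG00000269243 (-3.71) and *LINC01624* (-3.55). A lncRNA on the opposite strand, ENSG00000287486, shares 106 exon bases with *TERT* and had a mean of 0.501 CPM in PBS cells and of at most 0.0903 CPM in a stimulated group, so it was scarce beside *TERT* in all groups.

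The choice of *TERT* did not compare the isolation methods, so these were tested. It did use the *E. coli* libraries, so the test of EPL against EUC is not independent of that choice. The level in EPL differed from that in EUC by 0.26 in log2 (95% interval -0.30 to 0.81), and the level in SPL from that in SUC by -0.10 (-0.57 to 0.38). Neither passed the test (edgeR quasi-likelihood, adjusted p = 0.947 and 0.956). The *E. coli* libraries, with 1.64 to 2.93 CPM, overlapped the *S. aureus* libraries, with 2.77 to 5.74 CPM.

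The promoter of *TERT* holds a CACGTG E-box, the letters that MYC and MAX bind and that the MXD proteins bind in their place. Within the 250 bases before the start site in RefSeq, 7 of the 10 genes could be searched on both strands, and this E-box was found once in *TERT* and once in *HOXA9*. In *TERT* it starts 163 bases before the start site, and the stretch (chr5:1295201-1295256, minus strand, GRCh38.p14) lies outside every gene in GENCODE 44. In *HOXA9* it starts 71 bases before the start site, in a stretch (chr7:27165578-27165633, minus strand) inside introns of longer *HOXA9* transcripts and of a readthrough gene. The stretches are shown because these genes share the E-box while their levels after stimulation were far apart, with the E-box in capitals.
TERT: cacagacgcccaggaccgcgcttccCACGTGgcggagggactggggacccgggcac
HOXA9: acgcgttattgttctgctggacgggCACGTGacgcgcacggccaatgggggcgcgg
Of all 35116 RefSeq windows of this length, 6.34% hold a CACGTG, 42.64% a GC box (GGGCGG) and 32.01% a CCAAT box (CCAAT). The *TERT* window holds 2 GC boxes and no CCAAT box, and the *HOXA9* window holds a CCAAT box and no GC box. A match of letters says nothing of binding in these cells.

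**Figure D1:**
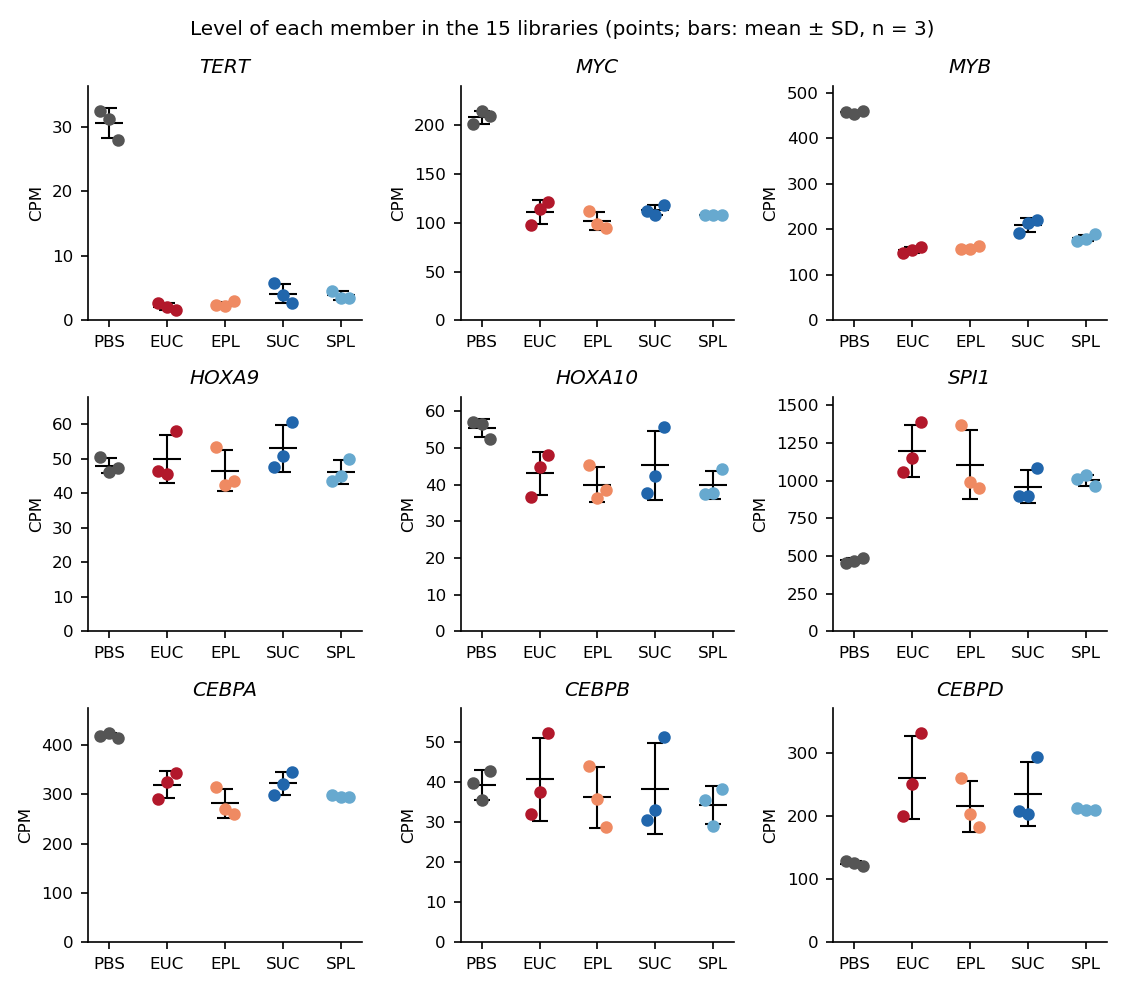
Level in CPM (vertical axes from 0) of the 9 genes that passed the filter, in PBS, EUC, EPL, SUC and SPL cells. Points are libraries and bars are the mean ± SD (n = 3). All stimulated libraries lie under all PBS libraries for TERT, MYC, MYB and CEBPA and above them for SPI1 and CEBPD, while the groups overlap for HOXA9 and CEBPB. The share of all tested genes with such a separation was not counted.

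*MYC* (ENSG00000136997, chr8:127735434-127742951) fell in all groups of stimulated cells. It had 201, 214 and 209 CPM in PBS cells. EUC cells had 97.8, 114 and 121 CPM and EPL cells had 112, 98.6 and 94.9 CPM. SUC cells had 112, 108 and 119 CPM, and the SPL libraries were nearly equal, with 107.7 to 108.1 CPM. The lowest PBS library was far above the highest stimulated library. The log2 fold change was -0.91 ± 0.09 (SE) for EUC, -1.03 ± 0.09 for EPL, -0.88 ± 0.09 for SUC and -0.95 ± 0.09 for SPL (edgeR quasi-likelihood, adjusted p = 2.01e-07, 4.27e-08, 4.48e-07 and 1.57e-07). The level in stimulated cells was thus between 48.9% and 54.2% of that in PBS cells. *MYC* was close to the limit of 1 in log2 for a differentially expressed gene (DEG) and passed it in EPL alone, where the value was -0.99 without EPL3.

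*MYB* (ENSG00000118513, chr6:135181308-135219173) fell the most among the members that were tested against PBS. The PBS libraries had 458, 452 and 459 CPM, a spread of 0.813% of the mean. EUC cells had 148, 155 and 161 CPM, and EPL cells had 156, 157 and 164 CPM. SUC cells had 192, 215 and 221 CPM, and SPL cells had 175, 178 and 189 CPM. No stimulated library came near the PBS libraries, and the *E. coli* and *S. aureus* libraries did not overlap either. The log2 fold change was -1.56 ± 0.07 for EUC, -1.52 ± 0.07 for EPL, -1.13 ± 0.07 for SUC and -1.34 ± 0.07 for SPL (edgeR, adjusted p = 1.80e-11, 2.66e-11, 1.91e-09 and 1.78e-10), which made it a DEG in all 4 groups. An antisense gene, *MYB-AS1*, shares 103 exon bases with it and had 0.727 CPM in PBS cells.

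*SPI1* (ENSG00000066336, chr11:47354860-47378547) rose in all groups, from a level that was already high. It had 456, 469 and 487 CPM in PBS cells. EUC cells had 1056, 1150 and 1388 CPM and EPL cells had 1368, 993 and 953 CPM. SUC cells had 896, 901 and 1083 CPM, and SPL cells had 1009, 1035 and 961 CPM. All stimulated libraries were above all PBS libraries, and the highest libraries were EUC3, EPL1 and SUC3 within their groups. The log2 fold change was 1.35 ± 0.13 for EUC, 1.23 ± 0.13 for EPL, 1.03 ± 0.13 for SUC and 1.09 ± 0.13 for SPL (edgeR, adjusted p = 2.02e-07, 6.36e-07, 7.60e-06 and 3.32e-06). *SPI1* was a DEG in all 4 groups, but in SUC it stood just over the limit and the value was 0.93 without SUC3 and 0.94 when EUC3, EPL1 and SUC3 were left out together.

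The C/EBP genes moved apart from each other. *CEBPD* (ENSG00000221869, chr8:47736913-47738164) rose in all 4 groups. It had 129, 126 and 121 CPM in PBS cells, 201, 251 and 332 CPM in EUC and 261, 204 and 183 CPM in EPL. SUC cells had 208, 204 and 294 CPM and SPL cells had 214, 210 and 209 CPM. No stimulated library overlapped the PBS libraries, but the spread inside EUC, with an SD of 66.0 CPM, was far wider than in SPL, with 2.28 CPM. The log2 fold change was 1.06 ± 0.17 for EUC, 0.79 ± 0.17 for EPL, 0.91 ± 0.17 for SUC and 0.76 ± 0.17 for SPL (edgeR, adjusted p = 6.47e-05, 0.00114, 0.000416 and 0.00188). It was a DEG in EUC alone, and the value there was 0.85 without EUC3, under the limit. In SUC it passed the limit without SUC1 (1.00) or SUC2 (1.02) and was 0.72 without SUC3. In SPL the adjusted p was 0.0111 without the third PBS library.

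*CEBPA* (ENSG00000245848, chr19:33299934-33302534) fell by a small amount in all 4 groups. It had 418, 424 and 415 CPM in PBS cells, 290, 326 and 343 CPM in EUC and 315, 271 and 260 CPM in EPL. SUC cells had 299, 321 and 346 CPM and SPL cells had 299, 296 and 296 CPM, so that all stimulated libraries were under all PBS libraries. The log2 fold change was -0.39 ± 0.09 for EUC, -0.57 ± 0.09 for EPL, -0.38 ± 0.09 for SUC and -0.50 ± 0.09 for SPL (edgeR, adjusted p = 0.00153, 4.37e-05, 0.00270 and 0.000222). When the counts were corrected for GC content and gene length, the log2 fold change itself was smaller, at -0.20 in EUC, -0.17 in SUC and -0.23 in SPL (edgeR, adjusted p = 0.0267, 0.0625 and 0.0137), and the call held in EPL alone. This correction was fitted to each library's deviation from the mean of all 15 libraries. It can therefore also remove treatment changes that follow GC content or length. In SUC the call was also lost without any single PBS library and without SUC1 or SUC2, with adjusted p between 0.0101 and 0.0204, while the log2 fold change stayed between -0.39 and -0.32.

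*CEBPB* (ENSG00000172216, chr20:50190830-50192668) did not pass the test in any group. It had 35.3 to 42.7 CPM in PBS cells and 28.7 to 52.1 CPM in stimulated cells, and these ranges overlapped. The log2 fold changes were 0.05 for EUC (95% interval -0.38 to 0.48), -0.12 for EPL (-0.55 to 0.31), -0.04 for SUC (-0.47 to 0.39) and -0.20 for SPL (-0.63 to 0.23). These intervals do not hold a change of 1 in either direction. Its replicates varied the most among the C/EBP genes relative to their mean, with a coefficient of variation of 29.5% in SUC.

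Levels of different genes can be compared per length only, as CPM per kilobase of exons. In PBS cells the mean order was *SPI1* (231), *CEBPA* (161), *CEBPD* (99.9), *MYB* (83.1), *MYC* (34.1), *CEBPB* (21.3), *HOXA9* (15.8), *HOXA10* (14.9) and *TERT* (5.16). *HOXA9* and *HOXA10* differed there by less than their combined SDs of 0.719 and 0.670. In stimulated cells *CEBPD* took the place of *CEBPA*: the ratio of *CEBPD* to *CEBPA* per kilobase was 0.606 to 0.640 in the PBS libraries, 1.44 to 2.01 for EUC, 1.46 to 1.72 for EPL, 1.32 to 1.76 for SUC and 1.47 to 1.49 for SPL. *SPI1* stayed first in every group, with mean levels between 471 and 587 per kilobase in stimulated cells, and *TERT* stayed last among the tested members, with 0.358 to 0.701.

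HOX genes stand at the centre of the MLL-fusion programme. *HOXA9* (ENSG00000078399, chr7:27162438-27175180) had 50.4, 46.2 and 47.3 CPM in PBS cells and between 42.6 and 60.7 CPM in stimulated cells. The highest values within the *E. coli* UC and PL and the *S. aureus* UC groups were again in EUC3, EPL1 and SUC3, with 58.0, 53.3 and 60.7 CPM. Its log2 fold change was 0.06 for EUC (-0.19 to 0.31), -0.04 for EPL (-0.29 to 0.21), 0.15 for SUC (-0.10 to 0.39) and -0.05 for SPL (-0.30 to 0.20), and none passed the test.

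*HOXA10* (ENSG00000253293, chr7:27170605-27180261) had 57.0, 56.5 and 52.5 CPM in PBS cells. EUC cells had 36.5, 44.7 and 47.9 CPM, EPL cells had 45.3, 36.4 and 38.4 CPM, SUC cells had 37.7, 42.3 and 55.8 CPM, and SPL cells had 37.5, 37.7 and 44.3 CPM. One stimulated library, SUC3, overlapped the PBS libraries. The log2 fold change was -0.36 for EUC, -0.47 for EPL, -0.29 for SUC and -0.47 for SPL (edgeR, adjusted p = 0.0424, 0.0115, 0.123 and 0.0125), so that no group passed 0.01. With DESeq2, EPL and SPL passed (adjusted p = 0.00797 and 0.00802). By edgeR they also passed without the filter on low counts (adjusted p = 0.000616 and 0.000834). The same held in fits of the compared groups only (adjusted p = 0.00250 and 1.56e-06). With the correction for GC content and length, SPL passed (adjusted p = 0.00782). EUC and SUC passed in none of these settings. It was also the member whose call depended most on single libraries. When EUC3, EPL1 and SUC3 were left out, the values were -0.45, -0.56, -0.46 and -0.47, with adjusted p of 0.000211, 1.29e-05, 0.000221 and 2.91e-05. These libraries were chosen for removal after the data had been seen.

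Reads of *HOXA9* and *HOXA10* are uncertain where other genes share their exons. A readthrough gene of both (ENSG00000257184) shares 397 exon bases with *HOXA9* and 368 with *HOXA10* and had 0 counts in all libraries. The antisense *HOXA10-AS* shares 422 and 608 exon bases with them, had 2.92 to 4.15 CPM as group means and did not pass the test. For *CEBPA*, the antisense lncRNAs ENSG00000267580 and ENSG00000267727 share 659 and 482 exon bases with it and had 0 counts in all libraries. The strand setting of the counting is not given in the sources used here.

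*MEIS1* (ENSG00000143995, chr2:66433452-66573869) was practically not detected. It had 1 count in the first PBS library, 1 count in EUC3 and 0 counts in the other 13 libraries. A count of 3, which would be between 0.176 and 0.207 CPM, was not reached in any library, so no fold change is given. The antisense *MEIS1-AS2* shares 1437 exon bases with *MEIS1*, 13.1% of its exons, and had 0 counts in all libraries. Whether the counting lost reads of *MEIS1* cannot be told, since its settings are not given. Several other TALE genes were expressed. Among them were *PBX2*, described with the listed genes, and *PBX3*, with a higher mean than *PBX2* in every group.

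**Figure D2:**
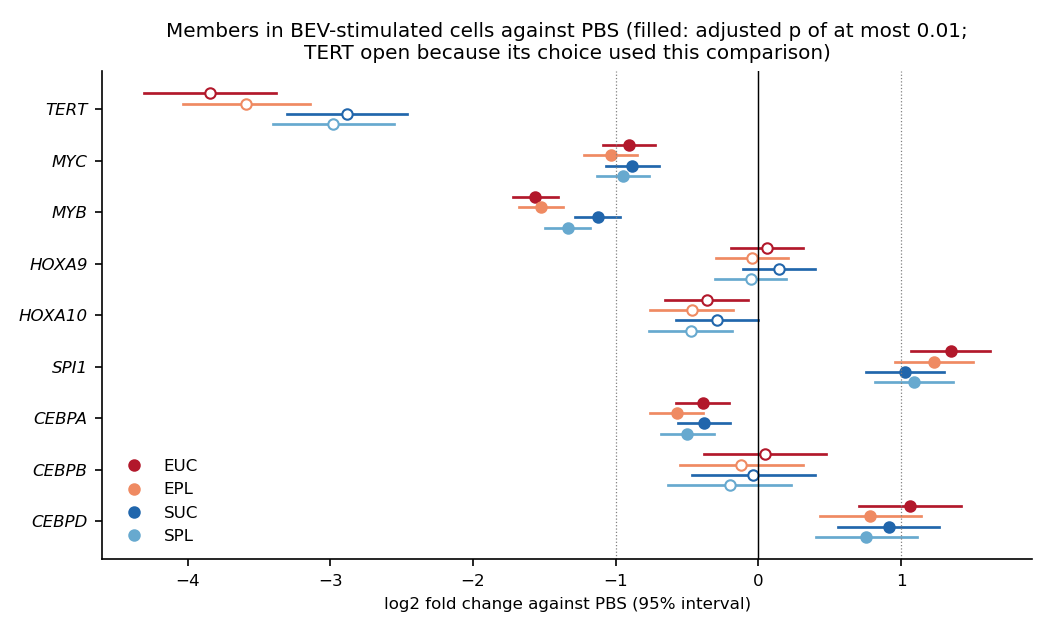
Log2 fold change against PBS (horizontal axis) with its 95% interval for each gene in EUC, EPL, SUC and SPL cells. Filled points passed an adjusted p of 0.01, TERT is drawn open because this comparison chose it, and dotted lines mark a log2 fold change of 1 in size; SPI1 and CEBPD lie to the right, and MYC, MYB and CEBPA to the left in all 4 groups.

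Counted over the 8 tested members without *TERT*, the calls were alike in the 4 comparisons, which share the PBS libraries. In EUC 2 members rose (*SPI1* and *CEBPD*) and 3 fell (*MYC*, *MYB* and *CEBPA*), where 16.5% of all 17198 tested genes rose and 14.0% fell. In EPL the same 2 rose and the same 3 fell, against 16.0% and 13.2% of all genes. In SUC these counts were again 2 and 3, against 12.4% and 9.15% of all genes, and in SPL 2 and 3, against 13.3% and 10.6%. *HOXA9*, *HOXA10* and *CEBPB* made up the 3 that did not pass. Over all tested genes, 10.9% rose in all 4 groups and 7.67% fell in all 4. How many of all tested genes had no overlap between PBS and stimulated libraries was not counted. The separations given above for single members are therefore a description.

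The limit of 1 in log2, in either direction, left fewer members as DEGs. EUC had 2 members that rose (*SPI1* and *CEBPD*) and 1 that fell (*MYB*), against 9.43% and 5.75% of all genes. EPL had 1 that rose (*SPI1*) and 2 that fell (*MYC* and *MYB*), against 9.38% and 5.15%. SUC and SPL each had 1 that rose (*SPI1*) and 1 that fell (*MYB*), against 6.82% and 3.06% of all genes in SUC and 7.76% and 3.70% in SPL. With 8 members, 1 gene is 12.5% of the set. The median log2 fold change of the 8 members was -0.16 for EUC, -0.29 for EPL, -0.16 for SUC and -0.34 for SPL, where the median of all tested genes was within 0.01 of 0.

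Between the species, *MYB* was the only one of the 8 members that passed the test. Its mean was 157 CPM in the 6 *E. coli* libraries and 195 CPM in the 6 *S. aureus* libraries. The log2 difference was -0.31 ± 0.05 (edgeR, adjusted p = 0.000828), lower in *E. coli*, and the ranges of 148 to 164 CPM and 175 to 221 CPM did not overlap. With single libraries left out the difference ranged from -0.35 to -0.29, and it was -0.30 without EUC3, EPL1 and SUC3. Of all tested genes 2.87% were higher and 1.00% lower under *E. coli* BEVs, and 0.663% and 0.0233% were so as DEGs, which no member was. *SPI1* was 0.23 higher (95% interval 0.04 to 0.42) and did not pass (adjusted p = 0.176), though it did so under the correction for GC content and length (adjusted p = 0.000465). The other members differed by at most 0.09 in log2, with intervals inside 0.39 in either direction. The dose also differed between these groups, as said above.

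Between the isolation methods none of the 9 tested members passed the test for either species, in comparisons where 0% of all genes were called for EPL against EUC and 0.00581% for SPL against SUC. By edgeR, 604 of 17198 tested genes had an unadjusted p under 0.05 for the *E. coli* groups and 1000 for the *S. aureus* groups. At this cut 0 members passed for the *E. coli* groups and 1 for the *S. aureus* groups. That gene was *MYB*, with a log2 difference of -0.21 (95% interval -0.36 to -0.06, adjusted p = 0.803), and the SUC libraries (192 to 221 CPM) were all above the SPL libraries (175 to 189 CPM). The widest interval for the other members was that of *TERT*, given above with the limit set by its choice. *CEBPD* differed by -0.28 in log2 in EPL against EUC (-0.63 to 0.07). The difference of methods was also compared between the species, where 0% of all genes and no member passed. *MYB* again had the lowest unadjusted p of the members, 0.0263, with a value of 0.25 (0.03 to 0.47). By edgeR, 659 of all tested genes had an unadjusted p under 0.05 there.

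In EUC3, EPL1 and SUC3 most tested members lay above their group mean. In EUC3 8 of the 9 tested members were above the mean of their group, in EPL1 7 and in SUC3 8. The exception in EUC3 and SUC3 was *TERT*, which was lower there by 0.32 and 0.50 in log2, and in EPL1 *TERT* and *MYB* were the exceptions. Deviations within a group balance each other, so a shared direction was not particular to these libraries. In EUC1 and SUC1 every tested member but *TERT* was below its group mean. Over the 15 libraries, the deviations from the group means correlated with a Pearson r between 0.22 and 0.92 for the 28 pairs without *TERT*, and between -0.78 and -0.59 for the 8 pairs with it. The closest pairs were *SPI1* with *CEBPA* and *CEBPA* with *CEBPD* (both 0.92), followed by *SPI1* with *CEBPD* (0.90). These correlations rest in part on EUC3, EPL1 and SUC3. Over the other 12 libraries, r lay between -0.60 and 0.82 for the 28 pairs, of which 22 were above 0, and between -0.67 and -0.30 for the 8 pairs with *TERT*. The r of *SPI1* was then 0.57 with *CEBPA* and 0.55 with *CEBPD*, and that of *CEBPA* with *CEBPD* was 0.80. The points share library, depth and base composition, and these values are a description. *SPI1*, *CEBPA*, *CEBPB* and *CEBPD* are rich in GC (65.2% to 66.2% of exon bases), *TERT* has 63.0% and *MYB* 43.9%. Across genes, the deviation from the group mean correlated with GC content with an r of 0.26 in EPL1, -0.02 in EUC3 and 0.05 in SUC3, and the lowest values were -0.24 in EPL3 and -0.19 in SPL3. The part of GC content in these deviations was not tested beyond the correction given for *CEBPA* and *SPI1*.

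**Figure D3:**
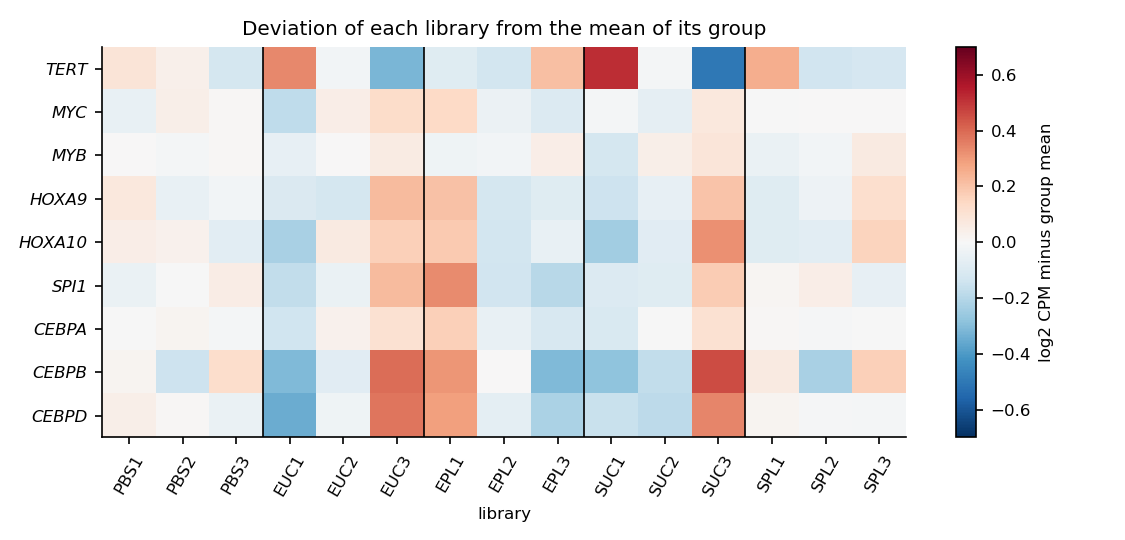
Deviation of log2 CPM from the mean of the library's own group (colour, red above and blue below) for 9 genes (rows) in the 15 libraries (columns). EUC3, EPL1 and SUC3 are red in most rows, and TERT is blue in EUC3 and SUC3.

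Likeness to each member was measured by Pearson correlation across the 15 libraries, on log2 CPM. For *TERT* the first was *AFF3*, with an r of 0.992, followed by *TMEM104* and *SLC25A23*, and 258 genes had an r over 0.95. For *MYB* they were *CA2* (carbonic anhydrase), *CAT* (catalase) and *BRI3BP*, with 308 genes over 0.95, and for *MYC* *IRX3*, *ERLIN1* and *LYL1*, with 138. *SPI1* was most like *LY6E*, *KCNN4* and *IFITM3*, with 469 genes over 0.95. *CEBPA* was most like *MATK*, *KLF16* and *CD320*, and *CEBPD* most like *TXN* (thioredoxin), *TALDO1* and *CCNB1* (cyclin B1). The members that did not pass the test had no gene over 0.95. Their first genes were *FDX1* for *HOXA9* (0.929), *MPG* for *HOXA10* (0.947) and *FOXD1* for *CEBPB* (0.906). For the members that changed, these correlations follow mainly the step between PBS and stimulated cells, which many genes share.

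Other genes of these pathways were examined in 7 lists, in the same fit, by the number that rose or fell in all 4 groups. Of all tested genes, 10.9% rose and 7.67% fell in this way.

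Of the telomerase holoenzyme and telomere end protection list, 19 of 21 genes were tested, and 0 rose and 1 fell in all 4 groups. That gene was *RUVBL2*, an ATPase that helps to assemble telomerase, with a mean of 207 CPM in PBS cells and of 119 to 148 CPM in stimulated cells. Its log2 fold change was -0.70, -0.80, -0.48 and -0.61 in EUC, EPL, SUC and SPL (edgeR, adjusted p of at most 0.00474). The call was lost in at least 1 group without the second or the third PBS library and without SUC1 or SUC2. The RNA template of telomerase, *TERC*, had 3 counts in all libraries and was not tested. The median log2 fold change of the list was between -0.16 and -0.03.

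Among MYC partners and antagonists, 19 of 20 genes were tested, and 2 rose and 3 fell in all 4 groups. *MXD1*, which takes MYC's place beside MAX, had 9.30 CPM in PBS cells and 62.7, 65.3, 30.6 and 40.4 CPM in EUC, EPL, SUC and SPL. It rose by 2.75, 2.81, 1.72 and 2.12 in log2 and was 0.86 higher in *E. coli* than in *S. aureus* groups (edgeR, adjusted p = 7.27e-06). *MYCL*, a relative of *MYC*, rose from 31.7 CPM to between 81.3 and 88.0 CPM, by 1.36 to 1.47 in log2. Of the other antagonists, *MXI1* fell from 30.5 CPM to between 12.1 and 14.0 CPM and *MXD4* from 78.2 CPM to between 55.3 and 57.8 CPM, so the MXD family did not move one way. *KAT2A*, an acetyltransferase that MYC recruits, fell by 0.50 to 0.71. *MLXIPL* (ChREBP) was lower under *E. coli* BEVs by 0.60 (adjusted p = 0.000427). The median of the list was -0.10 for EUC, -0.09 for EPL, -0.10 for SUC and 0.09 for SPL.

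Among ribosome biogenesis and growth genes known as MYC targets, 27 of 28 genes were tested, and 0 rose and 2 fell in all 4 groups. These were *CAD*, an enzyme of pyrimidine synthesis, with 231 CPM in PBS cells and 127 to 158 CPM in stimulated cells, and *LDHA* (lactate dehydrogenase), with 515 CPM and 310 to 364 CPM. In single groups 5 of the 27 genes fell for EUC, 7 for EPL, 2 for SUC and 4 for SPL, and 0 rose, where 14.0%, 13.2%, 9.15% and 10.6% of all tested genes fell. With single libraries left out, 3 to 9 genes of the list changed for EUC, 4 to 11 for EPL, 2 to 3 for SUC and 1 to 5 for SPL. Without EUC3, EPL1 and SUC3 together 14, 18, 9 and 11 did. The calls over all tested genes rose as well in that fit. They went from 5251 to 6681 for EUC, 5026 to 6994 for EPL, 3697 to 5110 for SUC and 4114 to 6181 for SPL. The median of the list was -0.24 for EUC, -0.31 for EPL, -0.11 for SUC and -0.21 for SPL. When EUC3, EPL1 and SUC3 were left out, 8 genes of the list changed in all 4 groups. The share of all genes that did so in that fit was not computed.

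In the list of the HOXA cluster, TALE cofactors and the MLL complex, 20 of 26 genes were tested, and 2 rose and 5 fell in all 4 groups. *HOXA13*, at the far end of the cluster, had 51.8 CPM in PBS cells and 20.5, 21.0, 30.4 and 23.7 CPM in EUC, EPL, SUC and SPL. *HOTTIP*, the lncRNA transcribed from that end, had 11.2 CPM and 2.32, 2.64, 4.41 and 3.30 CPM. Under *E. coli* BEVs both were lower still, by 0.37 and 0.62 in log2 against *S. aureus* BEVs (edgeR, adjusted p = 0.000964 and 0.00711). *AFF1*, a partner in MLL fusions, fell by 0.73 to 0.97. *PBX2*, a TALE cofactor of HOX proteins, rose from 69.5 CPM to between 97.6 and 115 CPM, and *DOT1L*, the H3K79 methyltransferase on which MLL-AF9 cells depend, rose from 246 CPM to between 324 and 366 CPM. The count of 7 in this list was between 3 and 7 when single libraries were left out, and lowest without the first PBS library. The median of the list was between -0.33 and -0.18.

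Other myeloid lineage transcription factors formed a list of 30 genes, of which 28 were tested, and 6 rose and 8 fell in all 4 groups. *EGR2*, a factor of macrophages, rose from 1.53 CPM to between 27.8 and 38.3 CPM. *TRIB1*, a pseudokinase that marks C/EBPα for degradation, rose from 19.6 CPM to between 103 and 137 CPM. Genes of immature or granulocytic cells were among those that fell. *GFI1* had 394 CPM in PBS cells and 102 to 134 CPM in stimulated cells, and *LYL1* 72.1 CPM and 15.3 to 21.5 CPM. *IRF8*, a factor of monocytes and dendritic cells, fell from 1049.8 CPM to between 270.3 and 396.5 CPM. In *E. coli* groups *RUNX3* was higher, by 0.65 against *S. aureus* groups, and *LMO2* was lower by 0.38 (edgeR, adjusted p = 9.23e-05 and 0.00170). The median of the list was between -0.12 and 0.00.

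Among stem and progenitor associated genes, 14 of 24 genes were tested, and 1 rose and 3 fell in all 4 groups. *BCL2*, which protects from apoptosis, fell from 172 CPM to between 53.1 and 62.0 CPM. *FLT3*, a growth factor receptor of progenitors, fell from 57.3 CPM to between 30.4 and 37.8 CPM, and *MSI2*, an RNA-binding protein of stem cells, from 30.0 CPM to between 19.7 and 21.7 CPM. *ITGA6*, an integrin, rose from 9.88 CPM to between 14.0 and 19.6 CPM. In *E. coli* groups *SOX4* and *BCAT1* were higher, by 0.49 and 0.30 against *S. aureus* groups, and *LGR4* was lower by 0.38 (edgeR, adjusted p = 0.00104, 0.00354 and 0.00620). The count of 4 was 2 without the first or the third PBS library. The median of the list was between -0.27 and -0.19.

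In the list of granule and surface genes known as PU.1 and C/EBP targets, 18 of 20 genes were tested, and 7 rose and 4 fell in all 4 groups. Subunits of the NADPH oxidase were among those that rose. *CYBB* had 9.25 CPM in PBS cells and 94.7 to 110 CPM in stimulated cells, and *NCF1* 44.8 CPM and 202 to 248 CPM. *NCF1* shares reads with near-identical pseudogenes and its value is uncertain. The granule gene *MPO* (myeloperoxidase) fell from 10.2 CPM to between 3.38 and 4.21 CPM, *MS4A3* from 95.7 CPM to between 23.1 and 33.5 CPM, and the surface receptor *CD33* from 82.8 CPM to between 50.1 and 64.8 CPM. *LYZ* (lysozyme) had 90.4 CPM in PBS cells and 73.9, 84.0, 66.4 and 66.1 CPM in EUC, EPL, SUC and SPL. Under *E. coli* BEVs *LYZ* was higher than under *S. aureus* BEVs, by 0.25, and *CD33* was lower by 0.31 (edgeR, adjusted p = 0.00520 and 0.00107). The median of the list was between -0.15 and -0.04.

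**Figure D4:**
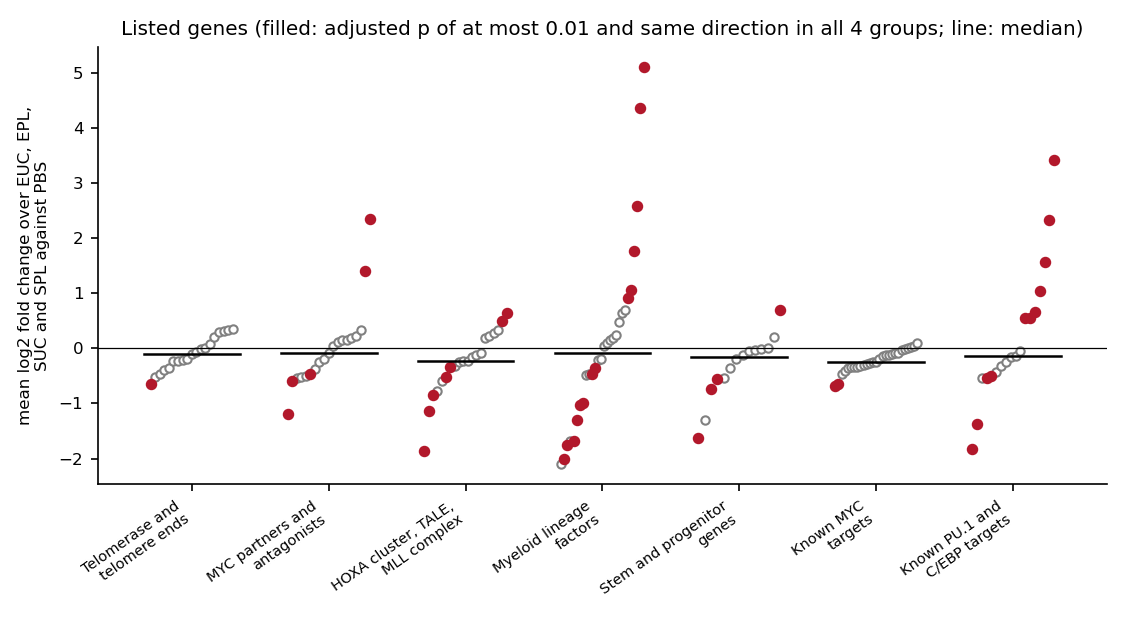
Mean log2 fold change over EUC, EPL, SUC and SPL against PBS (vertical axis) of every tested gene in the 7 lists (horizontal axis). Filled points passed an adjusted p of 0.01 with 1 direction in all 4 groups, and lines are medians; the highest points are in the list of myeloid lineage factors, while the telomerase list and the MYC target list hold no filled point above 0.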

How the data were processed

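RNA was isolated by the authors with Trizol, turned into libraries with a NEB kit and sequenced from both ends, and reads were aligned to hg38 with HISAT2. The submitters' processing notes also name FastQC 0.11.5, HISAT2 2.1.0, StringTie 1.3.3b, DESeq 1.28.0 and featureCounts, without roles. The deposited table holds whole-number read counts per Ensembl gene, not normalised. For the counting, strand setting and annotation release: not given in the sources used here. Libraries were grouped by their labels, in which the PBS control is called NC.

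Genes were kept with filterByExpr (17198 genes). One edgeR 4.0.16 quasi-likelihood model with TMM factors (R 4.3.3) was fitted to all 15 libraries, without a replicate block, and p-values were adjusted by Benjamini-Hochberg over all tested genes. Rose, fell and changed mean an adjusted p of at most 0.01, and DEGs also a log2 fold change of 1 or more in either direction. Intervals are at 95%. Log2 CPM used a prior count of 2. The scripts were tested on simulated data. GENCODE 44 on hg38 gave positions, exon lengths, overlaps and GC content, and RefSeq on GRCh38.p14 gave promoters; it had no entry for *SPI1*. *MYC* and *CEBPD* were not searched.

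The members and lists were chosen with earlier results of these data known. All members were named. From each list, up to 3 genes in each direction were named by the mean log2 fold change among those changed in all 4 groups with a mean of at least 1 CPM, and up to 3 that differed between the species. Genes that this rule names but whose values are missing from the text are not reported here. Alternatives were DESeq2 1.42.0, RLE size factors, no filter on low counts, fits of the compared groups only, a replicate block, an adjusted p of 0.05 and the removal of single libraries. Removal of EUC3, EPL1 and SUC3 together and an offset for GC content and length were added after seeing the data. The offset was fitted to deviations from the mean of all 15 libraries, so it does not separate technical from treatment changes. Floors of 3 counts cover counting error only.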

Additional observations from a re-analysis of the deposited data

Results flagged for a closer look

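*MYB* was flagged because its response differed between the species of BEVs by a test of the difference itself. The log2 level in *E. coli* groups minus that in *S. aureus* groups was -0.31 ± 0.05 (SE; edgeR quasi-likelihood, adjusted p = 0.000828), and all 6 *E. coli* libraries were under all 6 *S. aureus* libraries. Over the alternatives tried the adjusted p lay on the same side of 0.01. The *S. aureus* BEVs were given at 10 μg/mL and the *E. coli* BEVs at 1 μg/mL, so species and dose cannot be told apart.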

How the results depend on the processing

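Of 1656 member values under alternatives, 1623 were counted as the same, 9 lost a call and 24 gained one. A tested value was the same if it kept its side of the threshold. *TERT* against PBS and between the species was not tested. There, the same means a log2 fold change that moved by less than the SD within groups. None reversed among the called values, while 45 of the 1623 values, all without a call, changed sign. The calls that were lost were those of *CEBPA* and of *CEBPD* given in the report, and those gained were of *HOXA10* and, between the species, of *SPI1*. The cause was not tested.

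Members that were DEGs in SUC numbered 2, and 1 to 3 with single libraries left out (1 without SUC3, 1 also without EUC3, EPL1 and SUC3 together). Members that differed between the species were 1, and 2 with the offset for GC content and length. Listed genes changed in all 4 groups were 1 for telomerase (2 at an adjusted p of 0.05, 4 without the 3 libraries, 0 to 1 with single libraries left out), 5 for MYC partners (9 without the 3 libraries), 7 for the HOXA list (3 to 7), 4 for stem and progenitor genes (2 to 4) and 2 for MYC targets (5 at 0.05, 8 without the 3 libraries, 1 to 3 with single libraries left out).

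Over all genes, the calls of SPL against PBS were 4114, and 6535 with the compared groups only and 6181 without the 3 libraries. Without the 3 libraries those of EUC, EPL and SUC rose as well, from 5251, 5026 and 3697 to 6681, 6994 and 5110. Calls between the species were 665, and 1169 at 0.05 and 1449 without the 3 libraries. For EPL against EUC they were 0, and 5 without a filter on low counts. For SPL against SUC they were 1, and 3 with DESeq2, 18 without a filter, 2 with the compared groups only, 3 at 0.05, 6 without the 3 libraries, 3 with the offset and 1 to 3 with single libraries left out. For the difference of methods between species they were 0, and 6 with DESeq2, 9 without a filter, 6 without the 3 libraries, 1 with the offset and 0 to 1 with single libraries left out.

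The replicate numbers did not pair the libraries in a uniform way. Of 30 pairs with the same number, 7 had deviations correlated over 0.1 and 14 under 0 (range -0.45 to 0.52). The highest were EUC3 with SUC3 (0.52) and EUC1 with SUC1 (0.39), and 9 of 15 libraries correlated best with their own number. A replicate block gave 2 calls for SPL against SUC in place of 1, and it changed no other call of a member and moved no other count by over 1.5 times. Between 1.64 and 5.74 CPM, *TERT* rests on 25 to 84 counts in stimulated libraries, which limits the comparison of its low levels.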
